A study of Arabidopsis thaliana with 4 samples.

Results

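SAUR genes (SMALL AUXIN UP RNA) form a large plant family of short, mostly intronless genes, many of which are switched on by auxin within minutes. Messenger RNA was measured in 4 single plants of Arabidopsis thaliana, 2 that overexpressed PPD3 (labelled PPD3_OE) in the Columbia-0 background and 2 of the Col-0 wild type that served as control. PPD3 encodes a PsbP-domain protein, a relative of an outer subunit of the water-splitting complex in chloroplasts. All 4 plants grew on a peat mix in chambers set to 22 °C and 16 h of daylight, and were collected as they bolted. The labels do not name the promoter of the transgene, the number of lines it came from or the age of the plants in days. The growth notes speak of entire plants and the tissue field of the rosette, which leaves unclear how much stem and bud was included. The 55 SAUR genes described here were chosen by locus identifier, out of 33977 gene rows in the count files, with earlier results of these data known. Of them, 30 stand in 6 tandem clusters. The other 25 are called dispersed here, though some lie near each other, such as SAUR70 with SAUR76 and SAUR51 with SAUR52.

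SAUR proteins act in cell expansion. In the acid growth model, SAUR proteins such as SAUR19 inhibit PP2C.D phosphatases, which would otherwise switch off the proton pumps of the plasma membrane, and the active pumps acidify and loosen the cell wall. Auxin raises SAUR transcription through TIR1/AFB receptors and ARF transcription factors, and light, temperature and brassinosteroids act on many of the same genes through PIF, BZR1 and BES1 factors. SAUR transcripts and proteins are short-lived, so their levels follow such inputs closely.

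Gene counts came to 40727172 and 34793720 in PPD3_OE plants 1 and 2, against 36990201 and 33771093 in Col-0 plants 1 and 2. Levels are given as CPM, counts scaled to a common library size with TMM factors, and log2 fold changes are PPD3_OE over Col-0 with their SE. The overexpressed gene, PPD3, was taken as AT1G76450, a locus that the reference annotates as a PsbP family protein without that symbol. It stood at 2836 and 3264 CPM in PPD3_OE plants and at 103 and 70.7 CPM in Col-0 plants. Its log2 fold change was 5.14 ± 0.31, with an adjusted p of 0.0623 in edgeR's quasi-likelihood test and 4.40e-86 in DESeq2. PPD3_OE plant 1 stood apart from the other plants in wound and touch markers, which summed to 2597 and 615 CPM in PPD3_OE plants and to 802 and 1318 CPM in Col-0 plants. Senescence markers separated the genotypes, with sums of 15.3 and 10.97 CPM in PPD3_OE plants against 185 and 352 CPM in Col-0 plants. Markers of dividing cells summed to 123 and 116 CPM in PPD3_OE plants and to 72.9 and 61.2 CPM in Col-0 plants, and floral markers to 28.3 and 23.0 CPM against 18.1 and 9.22 CPM. Markers of the stem's secondary wall summed to 56.2 and 62.6 CPM in PPD3_OE plants and to 58.4 and 143 CPM in Col-0 plants. Leaf photosynthesis markers were abundant in every library (29745 and 33380 CPM in PPD3_OE plants, 32073 and 24881 CPM in Col-0 plants). The root hair genes LRX1 and EXPA7 were at 0 in all 4. COBL9 (SHV2 in the annotation), the remaining root hair marker, had 10 counts in PPD3_OE plant 1 and 0 in each other plant. The part of these differences in the SAUR levels was not tested. In whole tissue, fewer cells that make a transcript and less of it per cell cannot be told apart.

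The promoters of 7 SAUR genes are shown because the genes lie in the clusters, or among the dispersed members, that differed most in level between the genotypes, or hold a motif of an upstream factor. Each is the stretch of 250 bases before the annotated gene start, read 5′ to 3′ on the gene's strand from the RefSeq sequence of TAIR10.1. Capitals mark matches on either strand to TGTCTC (reverse complement GAGACA), the element that ARF factors were first known to bind, to CACGTG, the G-box read by PIF and HY5 factors, and to CGTGTG (reverse complement CACACG), an element bound by BZR1.
SAUR24 promoter, chr5:5983433-5983682, plus strand: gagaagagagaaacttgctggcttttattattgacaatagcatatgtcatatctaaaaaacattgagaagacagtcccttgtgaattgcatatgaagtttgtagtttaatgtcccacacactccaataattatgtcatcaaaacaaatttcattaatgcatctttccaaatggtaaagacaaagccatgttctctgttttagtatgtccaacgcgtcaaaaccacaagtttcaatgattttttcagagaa
SAUR22 promoter, chr5:5975088-5975337, minus strand: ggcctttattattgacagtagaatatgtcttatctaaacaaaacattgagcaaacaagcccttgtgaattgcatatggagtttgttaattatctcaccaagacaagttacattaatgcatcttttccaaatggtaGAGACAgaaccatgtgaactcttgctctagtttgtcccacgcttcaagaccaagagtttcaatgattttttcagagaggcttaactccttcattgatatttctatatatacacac
SAUR20 promoter, chr5:5966786-5967035, minus strand: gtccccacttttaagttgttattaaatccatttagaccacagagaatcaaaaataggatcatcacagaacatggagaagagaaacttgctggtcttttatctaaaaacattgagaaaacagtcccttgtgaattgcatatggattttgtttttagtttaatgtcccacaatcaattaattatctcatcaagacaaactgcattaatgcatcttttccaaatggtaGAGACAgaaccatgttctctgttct
SAUR68 promoter, chr1:10322173-10322422, plus strand: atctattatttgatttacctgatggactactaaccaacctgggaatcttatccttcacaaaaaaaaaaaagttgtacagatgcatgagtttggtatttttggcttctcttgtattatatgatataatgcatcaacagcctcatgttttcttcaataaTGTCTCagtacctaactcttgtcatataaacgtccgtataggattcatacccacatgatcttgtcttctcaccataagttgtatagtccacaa
SAUR66 promoter, chr1:10320761-10321010, plus strand: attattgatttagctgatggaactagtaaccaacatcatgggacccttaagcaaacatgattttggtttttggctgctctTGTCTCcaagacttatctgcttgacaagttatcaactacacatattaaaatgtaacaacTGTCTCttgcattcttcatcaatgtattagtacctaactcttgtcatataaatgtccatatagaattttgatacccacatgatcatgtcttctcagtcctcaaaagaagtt
SAUR15 promoter, chr4:18125807-18126056, plus strand: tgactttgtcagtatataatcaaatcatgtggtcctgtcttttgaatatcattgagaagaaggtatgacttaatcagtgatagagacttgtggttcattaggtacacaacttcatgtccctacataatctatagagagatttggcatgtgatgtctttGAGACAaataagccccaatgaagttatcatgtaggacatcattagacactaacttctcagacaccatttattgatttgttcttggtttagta
SAUR59 promoter, chr3:22434614-22434863, plus strand: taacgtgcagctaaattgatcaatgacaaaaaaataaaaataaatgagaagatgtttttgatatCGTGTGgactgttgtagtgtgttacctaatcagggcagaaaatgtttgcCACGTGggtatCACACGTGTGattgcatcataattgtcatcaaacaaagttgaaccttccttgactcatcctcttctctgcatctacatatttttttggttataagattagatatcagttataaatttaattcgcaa

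SAUR20 and SAUR22 each held 1 match to TGTCTC, within a nearly shared stretch that in SAUR24, their close copy, held none. SAUR66 held 2 matches and SAUR68 held 1. In SAUR59, 2 matches to CACGTG and 3 to CGTGTG stood in the window, and the second CACGTG overlapped a pair of the CGTGTG matches. Over all 55 members, 7 (12.7%) had a TGTCTC match in this window, against 3004 of 27443 nuclear protein-coding genes (10.9%). All 7 were tandem members (SAUR7, SAUR15, SAUR20, SAUR22, SAUR62, SAUR66 and SAUR68), and 0 of the 25 dispersed members had one. The SAUR7 window lies inside the neighbouring SAUR6 gene. TGTCGG, a second auxin response element searched with its reverse complement CCGACA, was found in 2 members (3.64%) and 4.16% of all genes. CACGTG was found in 1 member (1.82%) and 6.49% of all genes, CGTGTG in 2 members (3.64%, SAUR59 and SAUR77) and 5.37%, and CGTGCG, with its reverse complement CGCACG, in 0 members and 1.57%. TGTCTC was the only one of the 5 motifs found in a larger share of members than of all genes, by a small margin. A match is a run of letters and not a measured binding site.

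The members were short genes with simple structure. Of the 55, 52 (94.5%) had 1 annotated exon, against 20.8% of 27444 nuclear protein-coding genes. Their exon length ran from 427 to 1690 bases with a median of 857 bases, where the median over all such genes was 1552 bases. The clusters differed in how alike their copies are. In the SAUR19 cluster on chromosome 5 (bases 5962773 to 5984308, SAUR19 to SAUR24) the coding sequences of any pair were 87.7% to 95.2% identical, and in the SAUR26 cluster on chromosome 3 (976715 to 983768, SAUR26 to SAUR29) 77.7% to 86.3%. The SAUR62 cluster on chromosome 1 (10301377 to 10323239, SAUR61 to SAUR66 and SAUR68) had pairs at 61.2% to 89.4%, and the SAUR1 cluster on chromosome 4 (16582183 to 16599568, SAUR1 to SAUR5 and SAUR50) at 52.2% to 63.9%. The SAUR15 cluster on chromosome 4 (18121526 to 18131284, SAUR13 to SAUR16) had pairs at 50.9% to 69.0%. The SAUR6 cluster on chromosome 2 (9083906 to 9090052, SAUR6, SAUR7 and SAUR12) held the least alike members, at 40.2% to 53.7%. No 150-base stretch of a SAUR19 cluster transcript, the length of a read, recurred exactly elsewhere in the genome. A full-length read without errors thus has 1 exact place even among these close copies. How reads with errors were placed is not known, as the aligner was not given. Repeated stretches of that length were found in SAUR62, SAUR63 and SAUR68 alone (1.90%, 9.93% and 8.23% of positions). Reads carry no strand, and 8 members overlap another annotated gene, SAUR6, SAUR7, SAUR8, SAUR63 and SAUR64 among them. Their counts are uncertain to that extent.

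**Figure D1:**
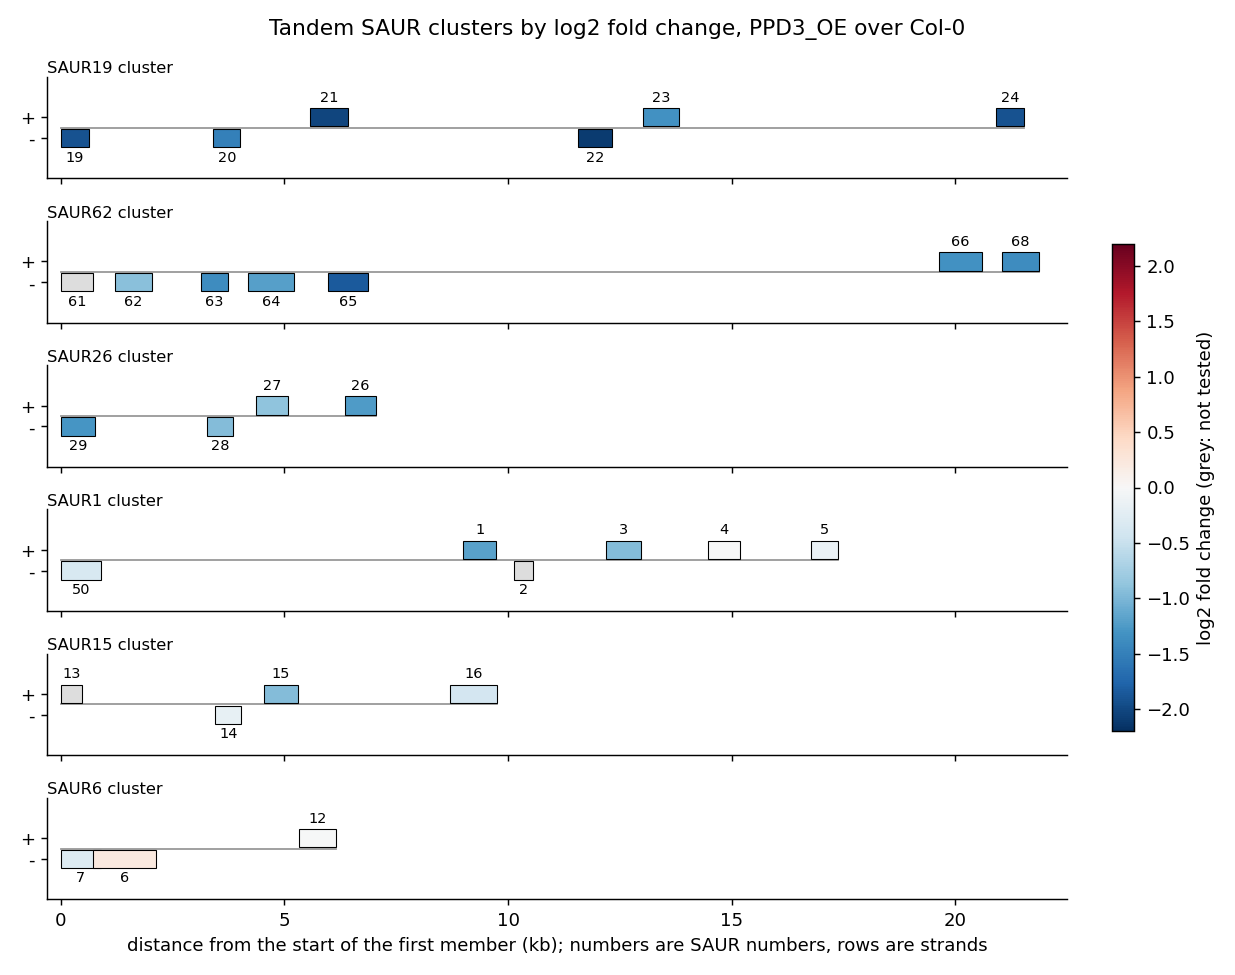
Maps of the 6 tandem clusters, drawn to scale in kilobases from the start of the first member, with genes on the plus strand above and on the minus strand below each line, numbered by SAUR number. Colour gives the log2 fold change, PPD3_OE over Col-0 (blue below 0, red above, grey not tested). The SAUR19 cluster is the darkest blue, with log2 fold changes of -2.11 to -1.34, and the SAUR6 cluster is nearly white.

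Most tested SAUR genes had lower mean levels in the PPD3_OE plants, and the log2 differences of the 6 cluster sums ran from -1.92 to 0.25. Of the 55 members, 47 had enough counts to be tested, and 38 of these (80.9%) had a negative log2 fold change, against 48.8% of all 19919 genes tested. The median log2 fold change was -0.89 over the members and 0.01 over all genes. The members were chosen with earlier results known. Of the 23 other SAUR-annotated genes, the 7 tested had a median of 0.25. Both PPD3_OE plants lay below both Col-0 plants for 26 members (55.3%), where 33.0% of all genes did so, and above them for 2 members (4.26%, SAUR8 and SAUR51), where 33.9% did so. In either direction the genotypes were apart for 67.0% of all genes. The other 19 members overlapped between the genotypes. All members together summed to 195 and 300 CPM in PPD3_OE plants and to 360 and 338 CPM in Col-0 plants.

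No single member passed an adjusted p of 0.05 in edgeR's test over all genes, where 1 of 19919 genes (0.00502%) passed. At an unadjusted p under 0.05 the same test gave 15 lower and 2 higher members (31.9% and 4.26% of those tested, against 17.0% and 16.1% of all genes, 33.1% in either direction). DESeq2 at an adjusted p of 0.05 called 14 lower and 0 higher of the 48 members to which it gave an adjusted p (SAUR25 among them), beside 9.72% and 8.41% of the 20304 genes with one. limma voom at an adjusted p of 0.05 called 0 members, and 0 of all 19919 genes. At an adjusted p of 0.10, edgeR called 12 lower members (25.5%, with 11.2% of all genes) and 1 higher member (2.13%, with 9.56% of all genes, and 20.7% in either direction), and all 12 were among the 14 of DESeq2. The lowest adjusted p that edgeR gave a member, 0.0623, was shared by 681 genes.

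The SAUR19 cluster showed the deepest difference. These genes encode proteins that promote cell expansion and, for SAUR19, inhibit PP2C.D phosphatases. Summed over its 6 genes, the cluster stood at 5.14 and 12.6 CPM in PPD3_OE plants and at 27.9 and 33.4 CPM in Col-0 plants, a log2 difference of -1.92, or 3.79-fold lower. Both PPD3_OE plants were far below both Col-0 plants, and PPD3_OE plant 1 was the lowest. The exact two-sided permutation test over the 4 libraries gave p = 0.333, the smallest this design allows. Without PPD3_OE plant 1 the log2 difference was -1.28.

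Within it, SAUR24 (AT5G18080, bases 5983683 to 5984308 of chromosome 5) was the most abundant copy. It stood at 1.67 and 3.41 CPM in PPD3_OE plants and at 9.20 and 9.97 CPM in Col-0 plants, or 2.54 ± 1.23 against 9.58 ± 0.543 CPM (SD, n = 2 each). Its log2 fold change was -1.92 ± 0.38, with an adjusted p of 0.0685 in edgeR and 1.19e-04 in DESeq2. SAUR21 (AT5G18030) stood at 0.948 and 2.39 CPM in PPD3_OE plants and at 6.33 and 7.07 CPM in Col-0 plants. It had the same order, with the genotypes well apart and PPD3_OE plant 1 lowest (log2 fold change -2.01 ± 0.47, edgeR adjusted p = 0.0804, DESeq2 adjusted p = 0.00116). SAUR19 (AT5G18010) was the least abundant, at 0.225 and 0.467 CPM in PPD3_OE plants against 1.299 and 1.29 CPM in Col-0 plants, from 9 and 16 against 48 and 45 counts. Its log2 fold change was -1.91 ± 0.42 (edgeR adjusted p = 0.0758, DESeq2 adjusted p = 0.0256). The other 3 copies, SAUR20, SAUR22 and SAUR23, also had both PPD3_OE plants below both Col-0 plants, as did 33.0% of all genes. Their log2 fold changes were -1.50, -2.11 and -1.34. The copies with a TGTCTC match, SAUR20 and SAUR22, thus bracketed SAUR24, which had none.

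The SAUR62 cluster, whose members include SAUR63 and relatives known to promote organ elongation, came next. Its 7 genes summed to 9.24 and 21.5 CPM in PPD3_OE plants and to 41.7 and 35.5 CPM in Col-0 plants, a log2 difference of -1.45, or 2.73-fold lower (exact permutation p = 0.333, the smallest possible). All 6 tested members had both PPD3_OE plants below both Col-0 plants, as did 33.0% of all genes. Without PPD3_OE plant 1 the log2 difference was -0.84.

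SAUR68 (AT1G29510, chromosome 1, bases 10322423 to 10323239) stood at 2.62 and 4.08 CPM in PPD3_OE plants and at 9.14 and 8.30 CPM in Col-0 plants, a 2.61-fold lower level (log2 fold change -1.38 ± 0.26, edgeR adjusted p = 0.0674, DESeq2 adjusted p = 6.61e-04). SAUR65 (AT1G29460) stood at 1.17 and 2.83 CPM in PPD3_OE plants against 8.47 and 5.80 CPM in Col-0 plants (log2 fold change -1.84 ± 0.49, edgeR adjusted p = 0.0917, DESeq2 adjusted p = 0.00429). SAUR66 (AT1G29500) had 2.30 and 4.81 CPM in PPD3_OE plants and 10.1 and 7.78 CPM in Col-0 plants (log2 fold change -1.33 ± 0.40, edgeR adjusted p = 0.111, DESeq2 adjusted p = 0.0193). In all 3 the genotypes were apart, and PPD3_OE plant 1 was the lowest and Col-0 plant 1 the highest of the 4. SAUR62, SAUR63 and SAUR64 had log2 fold changes of -0.92, -1.39 and -1.21 and did not pass in DESeq2. SAUR61 had 2 counts over all libraries. The annotation's synonyms also give the name SAUR68 to AT1G29490, which lies between SAUR65 and SAUR66, is not among the 55 and was not summed with the cluster. It had 0 and 3 counts in PPD3_OE plants and 13 and 10 counts in Col-0 plants.

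The SAUR26 cluster holds genes linked to growth at warm temperature. Its 4 genes summed to 3.05 and 8.20 CPM in PPD3_OE plants and to 11.4 and 14.0 CPM in Col-0 plants, a log2 difference of -1.34, or 2.54-fold lower (exact permutation p = 0.333). Without PPD3_OE plant 1 it was -0.63. SAUR29 (AT3G03820) was the most abundant of the 4, with 1.85 and 3.56 CPM in PPD3_OE plants and 6.65 and 6.63 CPM in Col-0 plants (log2 fold change -1.30 ± 0.35, edgeR adjusted p = 0.0939, DESeq2 adjusted p = 0.0137). The Col-0 plants were nearly equal in it, and the PPD3_OE plants lay below them and apart from each other. SAUR26 (AT3G03850) stood at 0.599 and 2.10 CPM in PPD3_OE plants and at 2.76 and 3.59 CPM in Col-0 plants (log2 fold change -1.24 ± 0.62). SAUR27 (AT3G03840) stood at 0.424 and 1.63 CPM in PPD3_OE plants and at 1.41 and 2.38 CPM in Col-0 plants (log2 fold change -0.89 ± 0.70). Neither passed a test, and in SAUR27, as in SAUR28 (-0.95), PPD3_OE plant 2 lay between the Col-0 plants. Leaving out 1 plant gave -2.40 to -0.59 for SAUR26 and -2.15 to -0.21 for SAUR27.

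**Figure D2:**
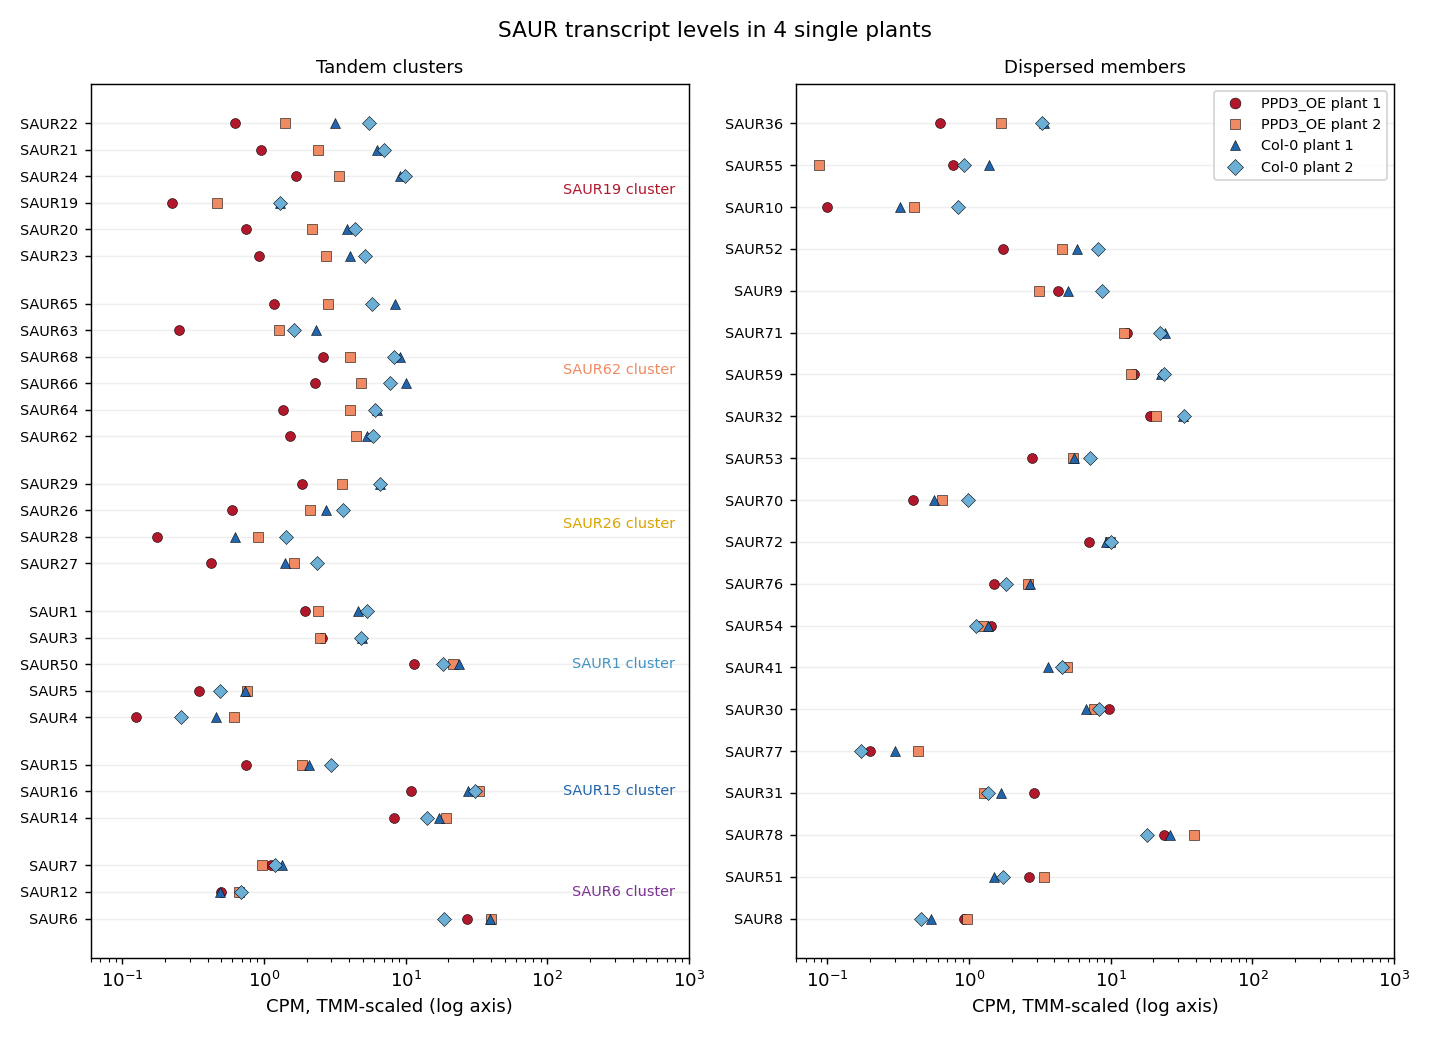
Levels of the 47 tested SAUR genes in each of the 4 plants, in TMM-scaled CPM on a log axis, with tandem clusters on the left panel and dispersed members on the right. Circles and squares are PPD3_OE plants 1 and 2, triangles and diamonds are Col-0 plants 1 and 2. In the SAUR19 and SAUR62 clusters every circle and square lies left of the triangle and the diamond, and the circle is leftmost.

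The SAUR1 cluster was mixed. It summed to 16.5 and 27.8 CPM in PPD3_OE plants and to 34.5 and 29.5 CPM in Col-0 plants, a log2 difference of -0.58 (exact permutation p = 0.333), which was -0.20 without PPD3_OE plant 1. SAUR1 (AT4G34770) stood at 1.95 and 2.39 CPM in PPD3_OE plants and at 4.65 and 5.31 CPM in Col-0 plants (log2 fold change -1.20 ± 0.21, edgeR adjusted p = 0.0637, DESeq2 adjusted p = 0.00269). SAUR3 (AT4G34790) stood at 2.57 and 2.48 CPM in PPD3_OE plants and at 4.95 and 4.88 CPM in Col-0 plants (log2 fold change -0.96 ± 0.17, edgeR adjusted p = 0.0638, DESeq2 adjusted p = 0.00924). In both genes the plants of a genotype lay close together and the genotypes far apart. SAUR50, a gene that light induces in opening cotyledons, made up most of the cluster's counts and overlapped between genotypes. It stood at 11.5 and 21.5 CPM in PPD3_OE plants and at 23.7 and 18.5 CPM in Col-0 plants (log2 fold change -0.36 ± 0.34). SAUR4 and SAUR5 had log2 fold changes of -0.0014 and -0.15, and SAUR2 had 3 counts in all.

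In the SAUR15 cluster the genotypes overlapped. It summed to 20.0 and 54.2 CPM in PPD3_OE plants and to 47.1 and 47.8 CPM in Col-0 plants, so that PPD3_OE plant 1 was the lowest and PPD3_OE plant 2 the highest of the 4. The log2 difference of -0.53 (exact permutation p = 1) was 0.19 without PPD3_OE plant 1. SAUR16 (AT4G38860), also light-induced in cotyledons, stood at 10.98 and 32.9 CPM in PPD3_OE plants and at 27.7 and 30.7 CPM in Col-0 plants. SAUR14 (AT4G38840) stood at 8.31 and 19.4 CPM in PPD3_OE plants and at 17.3 and 14.1 CPM in Col-0 plants. SAUR15 (AT4G38850), known as SAUR-AC1 and a classic auxin-induced transcript, was the exception, with 0.749 and 1.87 CPM in PPD3_OE plants and 2.08 and 2.99 CPM in Col-0 plants. Its genotypes did not overlap, but its log2 fold change of -0.96 ± 0.51 passed no test (edgeR adjusted p = 0.257, DESeq2 adjusted p = 0.274) and ran from -1.75 to -0.44 with 1 plant left out. SAUR13 was at 0 in every library.

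The SAUR6 cluster overlapped too. Its sum was 28.9 and 41.9 CPM in PPD3_OE plants and 41.3 and 20.6 CPM in Col-0 plants (log2 difference 0.25, exact permutation p = 0.667). The difference was -0.02 without PPD3_OE plant 2 and -0.25 without Col-0 plant 2. SAUR6 (AT2G21210) gave nearly all of these counts, with 27.3 and 40.3 CPM in PPD3_OE plants and 39.5 and 18.7 CPM in Col-0 plants (log2 fold change 0.21 ± 0.42). SAUR7 and SAUR12 had log2 fold changes of -0.29 ± 0.25 and -0.01 ± 0.36. SAUR7 and SAUR6 overlap on the same strand, and reads that fall on both cannot be assigned to one.

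**Figure D3:**
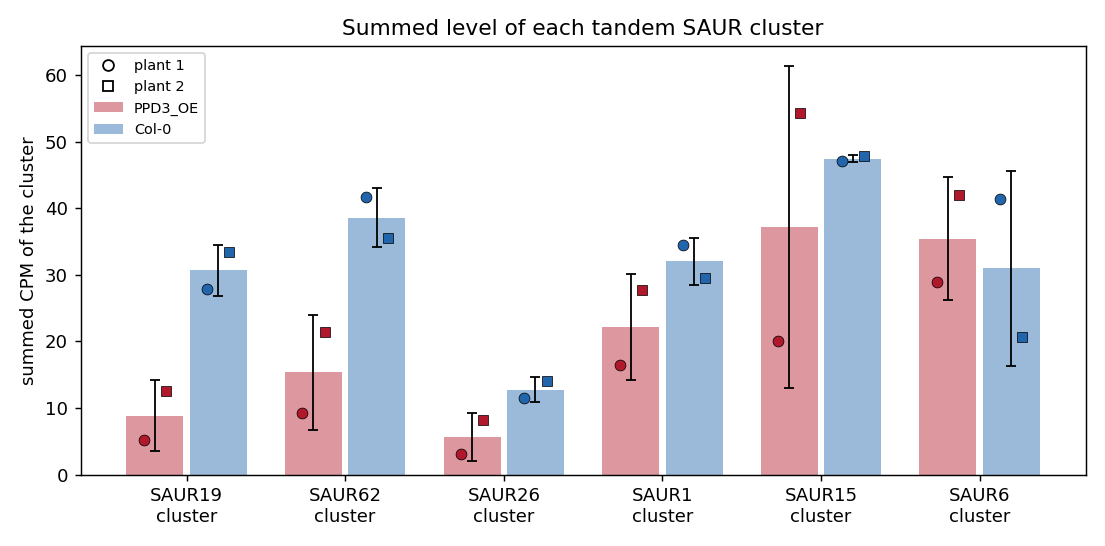
Summed level of each of the 6 tandem SAUR clusters in each plant, in TMM-scaled CPM. Bars are means and error bars the SD of 2 plants per genotype (PPD3_OE left, Col-0 right), with plant 1 as a circle and plant 2 as a square. The PPD3_OE plants lie below the Col-0 plants in the SAUR19, SAUR62 and SAUR26 clusters and, by a narrow margin, in the SAUR1 cluster. They overlap with the Col-0 plants in the SAUR15 and SAUR6 clusters.

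Clusters were then compared with each other by the log2 ratio of their summed counts within each library, in which the library size cancels. For 12 of the 15 pairs the ratios in both PPD3_OE plants lay on one side of those in both Col-0 plants. Among all genes, levels were apart in this way, in either direction, for 67.0%. The pairs reuse the same cluster sums, so the 12 are not independent of each other. Each of those 12 had an exact permutation p of 0.333, the smallest possible, and 0.417 after Benjamini-Hochberg adjustment over the 15 pairs, so that no pair could reach 0.05 in this design. Relative to the SAUR19 cluster, the SAUR15 cluster stood at log2 ratios of 1.96 and 2.11 in PPD3_OE plants and of 0.75 and 0.52 in Col-0 plants, a difference of 1.40. The plants of a genotype were close in this ratio, although PPD3_OE plant 1 was lower than plant 2 in both clusters. For the SAUR1 over the SAUR19 cluster the ratios were 1.68 and 1.14 in PPD3_OE plants and 0.31 and -0.18 in Col-0 plants, a difference of 1.35. The largest difference, 2.18, was that of the SAUR6 over the SAUR19 cluster (2.49 and 1.73 in PPD3_OE plants, 0.57 and -0.70 in Col-0 plants). The SAUR19 cluster also stood lower against the other clusters with low sums in PPD3_OE plants. The SAUR26 over SAUR19 ratio was -0.76 and -0.62 in PPD3_OE plants and -1.29 and -1.25 in Col-0 plants (difference 0.58), and the SAUR62 over SAUR19 ratio was 0.84 and 0.77 against 0.58 and 0.09 (difference 0.47).

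The SAUR62 and SAUR26 clusters in turn stood lower against the SAUR15 cluster. The log2 ratio of SAUR62 over SAUR15 was -1.12 and -1.34 in PPD3_OE plants and -0.18 and -0.43 in Col-0 plants (difference -0.92), and that of SAUR26 over SAUR15 was -2.72 and -2.73 in PPD3_OE plants against -2.04 and -1.77 in Col-0 plants (difference -0.82). All 5 ratios to the SAUR19 cluster kept their direction when any 1 plant was left out. The pairs whose ratios overlapped between the genotypes were SAUR62 over SAUR26 (difference -0.11), SAUR15 over SAUR1 (0.05) and SAUR6 over SAUR15 (0.78).

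The 2 PPD3_OE plants differed in SAUR levels far more than the Col-0 plants did. PPD3_OE plant 1 lay below plant 2 for 38 of the 47 tested members (80.9%), against 54.5% of all genes, with a median log2 ratio of -0.90. It lay more than 2-fold below plant 2 for 19 members (40.4%), 16 of them tandem, where 256 of 19919 genes (1.29%) did so. For SAUR31 and SAUR55, PPD3_OE plant 1 lay over 2-fold above plant 2. The Col-0 plants had a median log2 ratio, plant 1 over plant 2, of -0.01. They lay over 2-fold apart, in either direction, for 3 members, where 3.84% of all genes did so. PPD3_OE plant 1 was the lowest of the 4 plants for 31 members (66.0%), against 22.7% of all genes. The sum of the wound and touch markers given above was highest in this same plant, though TCH3 stood at 268 CPM in PPD3_OE plant 1 and at 404 CPM in Col-0 plant 2, and their part in the difference was not tested. Tandem members share sequence and position, so they are not independent of each other.

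The median log2 fold change was -0.46 without PPD3_OE plant 1, against -1.27 without PPD3_OE plant 2, and -0.997 and -0.54 without Col-0 plants 1 and 2. The number of members with PPD3_OE below Col-0 without overlap was 27 of 47 without PPD3_OE plant 1 (57.4%, with 43.0% of all genes), 37 without PPD3_OE plant 2 (41.6% of all genes), 32 without Col-0 plant 1 (40.9%) and 28 without Col-0 plant 2 (39.8%).

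**Figure D4:**
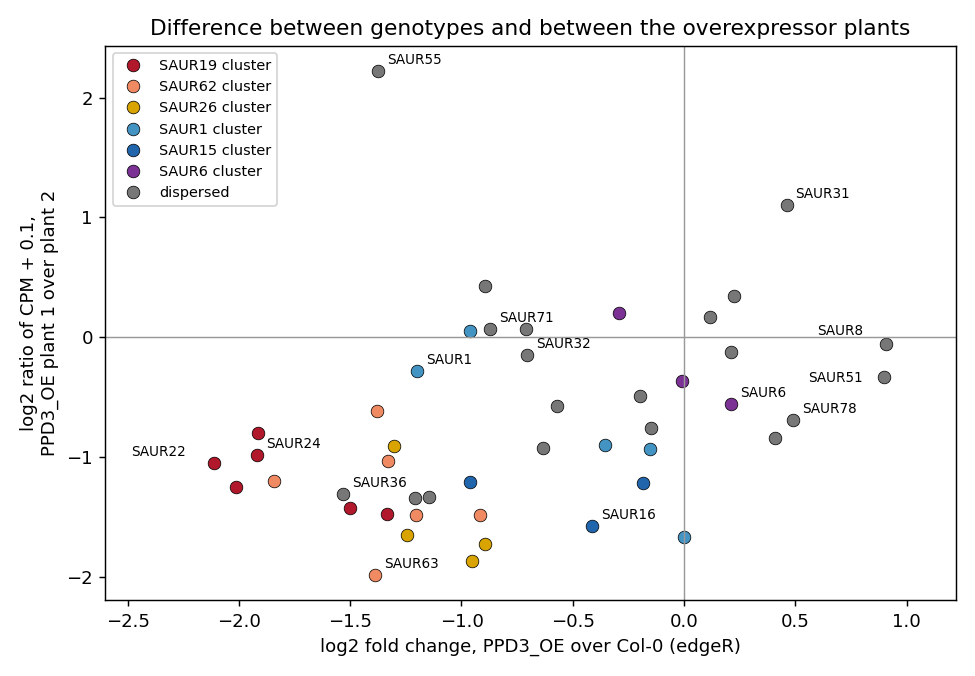
Each point is 1 of the 47 tested SAUR genes, coloured by cluster, with the log2 fold change of PPD3_OE over Col-0 on the horizontal axis and the log2 ratio of PPD3_OE plant 1 over plant 2 (CPM + 0.1) on the vertical axis. Both axes use the PPD3_OE plants and so are not independent. Most tandem members lie at the lower left, while SAUR71, SAUR32, SAUR1 and SAUR3 lie left of 0 with the PPD3_OE plants close together.

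Among the dispersed members, 20 were tested, and the count of lower ones was near the share over all genes. Their median log2 fold change was -0.39, with 8 members lower and 2 higher without overlap and 10 overlapping, beside 33.0% lower and 33.9% higher of all genes. The clearest differences were in 3 well expressed genes in which the plants of each genotype were close. SAUR71 (AT1G56150, chromosome 1, bases 21017311 to 21018122), of the SAUR41 subfamily, stood at 13.0 and 12.3 CPM in PPD3_OE plants and at 24.1 and 22.3 CPM in Col-0 plants, or 12.6 ± 0.435 against 23.2 ± 1.29 CPM (SD, n = 2 each). Its log2 fold change was -0.87 ± 0.11 (edgeR adjusted p = 0.0623, DESeq2 adjusted p = 9.73e-05).

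SAUR32 (AT2G46690), which acts in the apical hook, stood at 18.9 and 21.0 CPM in PPD3_OE plants and at 32.4 and 32.6 CPM in Col-0 plants (log2 fold change -0.71 ± 0.11, edgeR adjusted p = 0.0623, DESeq2 adjusted p = 9.77e-04). SAUR59 (AT3G60690, chromosome 3, bases 22434864 to 22436053), the member with CACGTG matches before its start, stood at 14.5 and 13.8 CPM in PPD3_OE plants and at 22.7 and 23.7 CPM in Col-0 plants (log2 fold change -0.71 ± 0.10, edgeR adjusted p = 0.0623, DESeq2 adjusted p = 0.00141). In these 3 genes no plant of one genotype came near the other genotype. Without PPD3_OE plant 1 the log2 fold changes of SAUR71, SAUR32 and SAUR59 were -0.91, -0.63 and -0.74.

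SAUR36 (AT2G45210), known as SAG201 and a promoter of leaf senescence, stood at 0.624 and 1.69 CPM in PPD3_OE plants and at 3.38 and 3.27 CPM in Col-0 plants. Its log2 fold change was -1.53 ± 0.50 (edgeR adjusted p = 0.123, DESeq2 adjusted p = 0.0448), -0.97 without PPD3_OE plant 1 and -2.41 without PPD3_OE plant 2. The senescence markers given above were lower in the same plants, and their part in its level was not tested. SAUR51 (AT1G75580) was higher, with 2.65 and 3.35 CPM in PPD3_OE plants and 1.49 and 1.72 CPM in Col-0 plants (log2 fold change 0.90 ± 0.24, edgeR adjusted p = 0.0904, DESeq2 adjusted p = 0.0864). SAUR8 (AT2G16580) had 0.923 and 0.963 CPM in PPD3_OE plants and 0.541 and 0.460 CPM in Col-0 plants (log2 fold change 0.91 ± 0.28, edgeR adjusted p = 0.116, DESeq2 adjusted p = 0.311). Both genes had the PPD3_OE plants above the Col-0 plants. SAUR51 neighbours SAUR52, which pointed the other way without passing a test.

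SAUR52 (AT1G75590) stood at 1.75 and 4.55 CPM in PPD3_OE plants and at 5.79 and 8.10 CPM in Col-0 plants (log2 fold change -1.15 ± 0.51). SAUR9 (AT4G36110), whose protein also binds PP2C.D phosphatases, stood at 4.22 and 3.12 CPM in PPD3_OE plants and at 4.98 and 8.67 CPM in Col-0 plants (log2 fold change -0.89 ± 0.34). SAUR53 had 2.80 and 5.40 CPM in PPD3_OE plants and 5.49 and 7.18 CPM in Col-0 plants (log2 fold change -0.63 ± 0.37). All 3 had genotypes apart by a narrow margin and passed neither test. Leaving out 1 plant moved the log2 fold change of SAUR52 over -1.99 to -0.61, that of SAUR9 over -1.27 to -0.45 and that of SAUR53 over -1.18 to -0.23. SAUR55 had 0.774 and 0.0875 CPM in PPD3_OE plants and 1.38 and 0.919 CPM in Col-0 plants, and in it PPD3_OE plant 2 was the lowest, on 3 counts. Its log2 fold change ran from -3.66 to -0.57 when 1 plant was left out. SAUR78, a gene linked to ethylene signalling, was abundant and overlapped, with 23.8 and 38.5 CPM in PPD3_OE plants and 26.4 and 17.9 CPM in Col-0 plants (log2 fold change 0.49 ± 0.32, and 0.10 to 0.80 with 1 plant left out).

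With SAUR78, 10 tested dispersed members overlapped between the genotypes, and their log2 fold changes ran from -1.21 to 0.49. The others were SAUR10, SAUR30, SAUR31, SAUR41, SAUR54, SAUR70, SAUR72, SAUR76 and SAUR77. SAUR72, also a binder of PP2C.D phosphatases, stood at 6.99 and 9.86 CPM in PPD3_OE plants and at 9.31 and 10.02 CPM in Col-0 plants. SAUR41, of the same subfamily as SAUR71, stood at 4.49 and 4.90 CPM in PPD3_OE plants and at 3.60 and 4.51 CPM in Col-0 plants. These relatives of SAUR71 had plants of both genotypes at like levels.

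A further 8 members had too few counts to be tested, with at most 25 counts in a library. They were SAUR2, SAUR13, SAUR25, SAUR37, SAUR38, SAUR40, SAUR61 and SAUR69. SAUR25 had 2 and 5 counts in PPD3_OE plants and 9 and 25 counts in Col-0 plants. SAUR40 had 0 counts in both PPD3_OE plants and 0 and 7 in the Col-0 plants, while SAUR69 had 4 and 4 counts in PPD3_OE plants and 4 and 2 in Col-0 plants. SAUR37 and SAUR38 totalled 1 and 5 counts.

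Scaled to exon length, which allows genes to be compared, SAUR32 ranked first with a mean of 29.3 RPKM over the 4 plants. SAUR14 (25.4), SAUR16 (24.4), SAUR6 (22.4), SAUR78 (22.1), SAUR71 (22.1) and SAUR50 (21.1) followed in mean RPKM. The spread between plants of these 6 genes was larger than the steps between their means, so their order is not settled. SAUR59 came eighth at 15.7 RPKM. SAUR24, the leading member of the SAUR19 cluster, ranked ninth with 2.67 and 5.45 RPKM in PPD3_OE plants and 14.7 and 15.9 RPKM in Col-0 plants. By mean RPKM in the PPD3_OE plants the leading members were SAUR78 (25.8), SAUR6 (24.1) and SAUR14 (23.8), and in the Col-0 plants SAUR32 (36.3), SAUR71 (28.5) and SAUR16 (27.8).

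Genes that act before and after SAUR proteins in growth control were examined as lists chosen by role. In none of the 6 lists did a gene pass an adjusted p of 0.05 in edgeR. Of the 6 TIR1/AFB auxin receptors, all 6 had both PPD3_OE plants below both Col-0 plants, as did 33.0% of all genes, and their median log2 fold change was -0.37. Of the 6, 2 were lower at an adjusted p of 0.10 in edgeR (11.2% of all genes). At the stricter adjusted p of 0.05, DESeq2 called 1 lower (9.72% of all genes). AFB5, the receptor that DESeq2 called, stood at 101 and 108 CPM in PPD3_OE plants and at 152 and 145 CPM in Col-0 plants (log2 fold change -0.51 ± 0.12, edgeR adjusted p = 0.0777, DESeq2 adjusted p = 0.00629). The 5 activating ARF factors were split. ARF19 stood at 14.6 and 14.96 CPM in PPD3_OE plants and at 22.7 and 27.1 CPM in Col-0 plants (log2 fold change -0.75 ± 0.13, edgeR adjusted p = 0.0642, DESeq2 adjusted p = 0.00327). MP (ARF5), which acts in vein and flower formation, stood at 29.0 and 29.1 CPM in PPD3_OE plants and at 21.3 and 20.9 CPM in Col-0 plants (log2 fold change 0.46 ± 0.10, edgeR adjusted p = 0.0720, DESeq2 adjusted p = 0.0383). In both ARF genes the genotypes did not overlap.

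Of 13 genes of auxin synthesis, 7 were tested, with 2 called higher and 1 lower by DESeq2 (8.41% and 9.72% of all genes). YUC4, a flavin monooxygenase of the last step of auxin synthesis, stood at 0.749 and 1.17 CPM in PPD3_OE plants and at 0.135 and 0.201 CPM in Col-0 plants (log2 fold change 2.49 ± 0.45, edgeR adjusted p = 0.0652, DESeq2 adjusted p = 0.0145). YUC3 went the other way, with 0.0998 and 0.146 CPM in PPD3_OE plants and 0.839 and 0.488 CPM in Col-0 plants (log2 fold change -2.42 ± 0.51, edgeR adjusted p = 0.0724, DESeq2 adjusted p = 0.0483). Both are scarce transcripts. YUC4 is active in floral organs, and the floral markers given above summed to more in the PPD3_OE plants, with their part in its level not tested.

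Among 8 light and brassinosteroid regulators of SAUR genes, 3 were called lower and 0 higher by DESeq2 (9.72% and 8.41% of all genes), and all 3 were PIF factors, which drive elongation in shade and warmth. PIF1 (PIL5 in the annotation) stood at 13.5 and 13.7 CPM in PPD3_OE plants and at 26.8 and 25.5 CPM in Col-0 plants (log2 fold change -0.94 ± 0.10, edgeR adjusted p = 0.0623, DESeq2 adjusted p = 5.70e-06). PIF4 and PIF5, named here after their values were seen, had larger differences. PIF4 stood at 70.3 and 62.5 CPM in PPD3_OE plants against 143 and 211 CPM in Col-0 plants (log2 fold change -1.42 ± 0.23), and PIF5 (PIL6 in the annotation) at 42.3 and 33.9 CPM against 89.0 and 146 CPM (log2 fold change -1.62 ± 0.29). PPD3_OE plant 1 was not the lowest in either, unlike in most SAUR genes. PIF7 had the highest log2 fold change of the list, 0.16 ± 0.12, and BES1, BZR1 and HY5 passed no test.

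The PP2C.D phosphatases and the proton pumps showed no common direction. Of the 9 PP2C.D phosphatases, 2 were called lower and 0 higher by DESeq2 (9.72% and 8.41% of all genes), and the median log2 fold change was 0.09. AT5G66080 stood at 3.62 and 2.54 CPM in PPD3_OE plants and at 6.87 and 5.72 CPM in Col-0 plants (log2 fold change -1.03 ± 0.25, edgeR adjusted p = 0.0833), and AT3G51370, named after its values were seen, at 99.6 and 93.3 CPM against 129 and 129 CPM (log2 fold change -0.42 ± 0.11). AT3G12620, the positive one with the smallest p, had a log2 fold change of 0.29 ± 0.14. AT5G02760, another phosphatase named after its values were seen, shared the plant pattern of the SAUR genes, with 3.27 and 13.9 CPM in PPD3_OE plants and 15.8 and 15.8 CPM in Col-0 plants. Of 11 plasma membrane proton pumps 9 were tested, with a median log2 fold change of 0.07. AHA2, one of the main pumps, stood at 340 and 407 CPM in PPD3_OE plants and at 277 and 245 CPM in Col-0 plants (log2 fold change 0.52 ± 0.16, edgeR adjusted p = 0.117, DESeq2 adjusted p = 0.0410). Both PPD3_OE plants were above both Col-0 plants in it, and AHA5 had the lowest log2 fold change of the pumps, -0.29 ± 0.12.

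**Figure D5:**
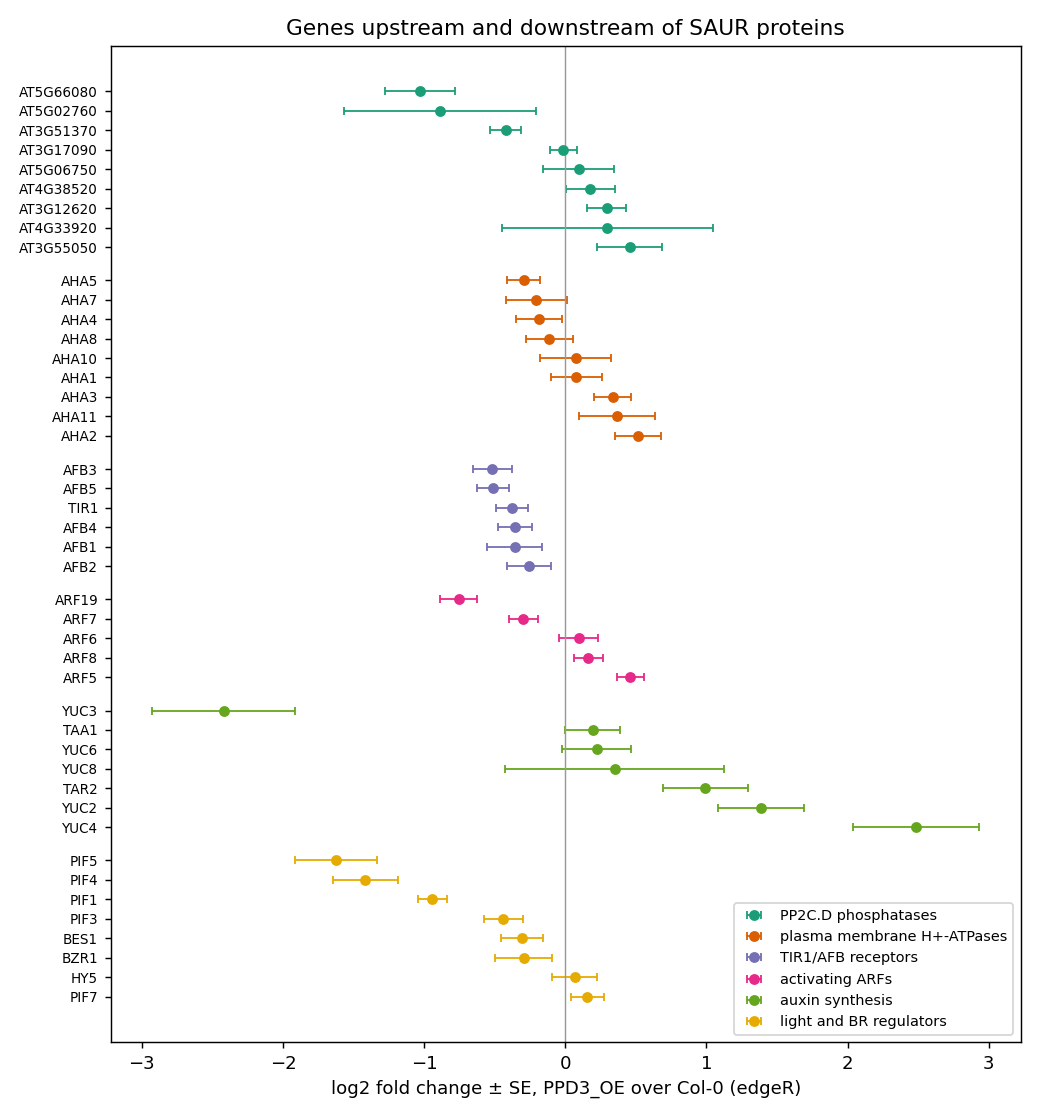
Log2 fold changes with SE, PPD3_OE over Col-0 from edgeR, of the tested genes of 6 lists around SAUR action, grouped by role and coloured by list. The TIR1/AFB receptors all lie left of 0, PIF1, PIF4 and PIF5 lie farthest left among the light and brassinosteroid (BR) regulators, and the phosphatases and proton pumps scatter around 0.

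The annotation names 23 more genes as SAUR, of which 7 were tested. Their median log2 fold change was 0.25, with 2 lower and 1 higher without overlap and 4 overlapping, beside 33.0% lower and 33.9% higher of all genes. With 7 genes such shares are coarse. SAUR33, the lower one with the smaller p, had 0.300 and 0.700 CPM in PPD3_OE plants and 1.79 and 1.12 CPM in Col-0 plants (log2 fold change -1.55 ± 0.52). SAUR49, the neighbour of the SAUR1 cluster, stood at 8.61 and 12.9 CPM in PPD3_OE plants and at 8.82 and 8.70 CPM in Col-0 plants (log2 fold change 0.29 ± 0.23), so that PPD3_OE plant 2 was the highest of the 4. Both were named after their values were seen.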

How the data were processed

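Messenger RNA libraries from 4 single plants, grouped by the genotype in the labels, were made with a TruSeq RNA kit that does not mark strand and sequenced as 150-base single reads, per the labels' protocols. The deposited values are raw counts of reads per gene, 1 file per plant. The submitters' processing notes name the build TAIR10 and DESeq2. The aligner, counter and annotation release were not given in the sources used here. Rows that name no gene, among them ambiguous reads (3.67% to 4.18% of counted reads) and reads aligned to several places (4.18% to 5.61%), stayed out of library sizes and tests. The labels call the plants biological replicates.

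The counts, as deposited, were fitted with edgeR 4.0.16 in R 4.3.3 (TMM factors 0.984 to 1.03, filter at a minimum count of 10 and total of 15, quasi-likelihood F test, no covariate), with Benjamini-Hochberg adjustment over 19919 genes and a threshold of 0.05. The fit had 2 residual and 2.36 prior degrees of freedom. The SE is the log2 fold change divided by the square root of F. DESeq2 1.42.0 gave no adjusted p for 4884 genes, and limma 3.58.1 gave voom. The scripts were tested on simulated data. Cluster sums and ratios were tested by exact two-sided permutation over libraries. Counting error adds to the spread between plants, most for members with few counts.

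Gene models, overlaps and promoters are those of RefSeq TAIR10.1, and coordinates are 1-based. Same-numbered plants deviated in opposite directions (correlation -0.386 over 19919 genes), so the numbers were not taken as pairs. Named genes are PPD3, the 3 tested members of each cluster and the 10 dispersed members with the smallest p, the 5 members with the highest mean CPM, and the gene with the smallest p in each direction of each pathway list. Other genes were named after their values were seen. The members and lists were chosen with earlier results of these data known.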

Additional observations from a re-analysis of the deposited data

How the results depend on the processing

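Results rest on 2 plants per genotype, and depth also limits members with few counts, of which 8 could not be tested. Another test or threshold changed the number of members called: 0 lower and 0 higher in edgeR at 0.05 became 14 lower with DESeq2, and 12 lower and 1 higher in edgeR at 0.10. The count stayed at 0 with other scalings, other filters and limma voom. These zeros say little about the members, as the main edgeR fit called 1 of 19919 genes and limma voom 0. The count was also 0 with the replicate number as a block, a fit with fewer residual degrees of freedom. There the median log2 fold change was -0.87, and the block changed no other call. The crossed replicate block also called 0 members.

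Leaving out each plant in turn moved the median log2 fold change over a range of -1.27 to -0.46, with the lowest value without PPD3_OE plant 2 and the highest without PPD3_OE plant 1. Cluster differences ran from -2.57 to -1.28 for the SAUR19 cluster, -2.06 to -0.84 for SAUR62, -2.06 to -0.63 for SAUR26 and -0.95 to -0.20 for SAUR1. They changed sign for SAUR15 (-1.24 to 0.19) and SAUR6 (-0.25 to 0.75). The ratios of SAUR62 over SAUR26 (-0.37 to 0.16) and SAUR15 over SAUR1 (-0.29 to 0.39) also changed sign. Among the named genes, the sign turned for SAUR6 (-0.25 and -0.09, range -0.25 to 0.82), SAUR50 (0.031, range -0.88 to 0.03), SAUR14 (0.31, range -0.92 to 0.31), SAUR16 (0.18, range -1.41 to 0.18) and SAUR12 (0.24 and 0.19, range -0.27 to 0.24, and 0.018 under upper quartile scaling). The causes were not tested. Without the 10 members that overlap another gene or hold repeated stretches the median remained -0.89, an alternative chosen after seeing the data, as were the crossed block and the counts without overlap when a plant is left out. Other scalings shifted the median of all genes by -0.044 to 0.027. PPD3 passed edgeR without the filter on low counts (adjusted p = 0.0409).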
